A study of Homo sapiens with 9 samples.

Results

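The 10 genes examined encode the enzymes and readers of N6-methyladenosine (m6A), the commonest internal mark of messenger RNA, and were chosen by name. They are METTL3, METTL14, WTAP, VIRMA and RBM15 of the methyltransferase complex, the demethylases FTO and ALKBH5, and the readers YTHDF1, YTHDF2 and YTHDF3. All ATAC-seq peaks in the body of these genes or within 10 kb of either end were taken, which gave 75 of the 194414 peaks in 4 deposited lists. After overlapping peaks of different lists were joined, they formed 26 of 71597 regions. The genes are 10 of 19974 protein-coding genes placed on chromosomes 1 to 22 and X.

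ATAC-seq marks open chromatin by inserting adapters with the transposase Tn5. It was applied to HEK293T cells, an established line derived from human embryonic kidney, at 100000 cells a reaction. The groups were a control given a non-targeting guide (2 libraries) and knockouts of IGF2BP1 (3 libraries), IGF2BP2 (2 libraries) and IGF2BP3 (2 libraries), all untreated. Per the labels' protocols, each knockout was 1 clone grown from a single sorted cell after transient transfection of plasmids carrying 3 guides, so an effect of the clone cannot be told apart from one of the genotype. Libraries came from 3 batches, and batch 1 held an IGF2BP1 knockout library alone. The study was titled for leukemia stem cells, but the libraries here were all HEK293T. Of 7 kidney developmental genes, 5 had a promoter peak in the control list, among them PAX2 and WT1. PAX8 had none in any list, and EYA1 had a promoter peak in the IGF2BP3 knockout list alone (662 bp). The neural genes NEFM, NEFL and INA (3 of 3) had one in every list. Of 10 genes of other lineages 2 had one (APOA1 and MYOD1). The blood markers PTPRC and CD33 had none in any list, and CD3E had one of 450 bp in the IGF2BP1 knockout list alone.

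The m6A mark is laid down in the nucleus by METTL3, the catalytic subunit, paired with METTL14, which helps to bind the RNA. WTAP, VIRMA and RBM15 anchor the pair and guide it to its sites. FTO and ALKBH5 can remove the mark, and the YTHDF proteins bind marked messages in the cytoplasm and act on their decay and translation. The IGF2BP proteins, which were knocked out here, are also known as m6A readers and stabilise the messages they bind. An ATAC-seq peak at these genes reports on their chromatin and not on the m6A mark, their RNA or their protein.

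Each list gave a peak's chromosome, start and end and no height, so width stood in for strength. The lists held 39194 (control), 50917 (IGF2BP1 knockout), 60262 (IGF2BP2 knockout) and 44041 (IGF2BP3 knockout) peaks, and read depth was unknown. With 1 list a group and no value per library, there was no spread between replicates to set a difference against and no test was made. A missing peak means that none was listed there, and cells that lack an open site cannot be told apart from a weaker site in every cell. The 3 knockouts were compared with the same control list. A width given as "without IGF2BP1" is that in the list of the IGF2BP1 knockout, and likewise for the others.

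The promoter sequences of 6 members are shown first because the compared peaks lie over them and because their known motifs differ. The peaks covered all 300 bases in every list except at METTL14, where they covered 267 in the control and 247 without IGF2BP2. They run from 250 bases before to 50 bases after the start site on the gene's strand, from RefSeq (GRCh38.p14), for which 8 of the 10 genes matched. Capitals mark matches to the motifs searched on both strands. The windows are METTL3 at chr14:21511291-21511590 (minus strand), METTL14 at chr4:118685142-118685441 (plus), RBM15 at chr1:110339127-110339426 (plus), FTO at chr16:53703906-53704205 (plus), ALKBH5 at chr17:18183578-18183877 (plus) and YTHDF1 at chr20:63216082-63216381 (minus).
METTL3: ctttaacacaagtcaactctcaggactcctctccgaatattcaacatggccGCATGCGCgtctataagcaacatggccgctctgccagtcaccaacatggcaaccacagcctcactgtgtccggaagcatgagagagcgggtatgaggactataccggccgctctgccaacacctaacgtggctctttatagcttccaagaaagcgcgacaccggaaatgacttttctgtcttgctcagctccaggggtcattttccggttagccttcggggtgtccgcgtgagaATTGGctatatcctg
METTL14: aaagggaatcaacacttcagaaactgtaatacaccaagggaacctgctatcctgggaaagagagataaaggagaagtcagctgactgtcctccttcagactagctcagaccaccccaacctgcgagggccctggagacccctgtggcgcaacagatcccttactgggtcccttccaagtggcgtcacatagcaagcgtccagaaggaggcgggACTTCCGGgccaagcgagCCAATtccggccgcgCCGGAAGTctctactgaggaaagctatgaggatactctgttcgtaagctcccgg
RBM15: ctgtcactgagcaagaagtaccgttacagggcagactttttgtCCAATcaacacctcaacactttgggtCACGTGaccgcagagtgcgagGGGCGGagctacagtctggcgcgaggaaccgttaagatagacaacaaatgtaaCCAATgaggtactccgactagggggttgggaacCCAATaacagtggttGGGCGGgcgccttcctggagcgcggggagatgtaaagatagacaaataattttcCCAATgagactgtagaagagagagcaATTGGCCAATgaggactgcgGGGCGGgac
FTO: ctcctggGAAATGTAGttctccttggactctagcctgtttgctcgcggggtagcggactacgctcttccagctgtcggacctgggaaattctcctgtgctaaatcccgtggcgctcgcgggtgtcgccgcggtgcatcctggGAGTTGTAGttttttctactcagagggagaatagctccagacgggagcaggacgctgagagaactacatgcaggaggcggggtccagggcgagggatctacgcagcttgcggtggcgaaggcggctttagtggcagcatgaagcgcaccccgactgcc
ALKBH5: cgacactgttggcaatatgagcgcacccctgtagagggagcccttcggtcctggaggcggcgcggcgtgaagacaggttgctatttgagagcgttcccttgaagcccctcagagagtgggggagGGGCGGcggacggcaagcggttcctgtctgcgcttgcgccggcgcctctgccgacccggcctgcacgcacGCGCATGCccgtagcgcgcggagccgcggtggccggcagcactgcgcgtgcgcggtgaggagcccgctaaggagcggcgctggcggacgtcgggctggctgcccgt
YTHDF1: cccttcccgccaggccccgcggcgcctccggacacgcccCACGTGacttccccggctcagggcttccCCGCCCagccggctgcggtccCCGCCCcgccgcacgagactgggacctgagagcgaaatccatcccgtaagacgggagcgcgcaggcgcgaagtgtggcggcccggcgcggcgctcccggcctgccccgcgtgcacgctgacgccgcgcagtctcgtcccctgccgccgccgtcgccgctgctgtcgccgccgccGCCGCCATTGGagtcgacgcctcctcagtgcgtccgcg

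The RBM15 window held 6 matches to CCAAT, the core bound by NFY, counting its reverse complement ATTGG. They began at positions -207, -107, -74, -5, 21 and 26 from the start site (position 0). Of 22156 windows of protein-coding genes, 24 (0.108%) held at least as many. This count was made after the sequence was seen. Of the 10 windows of the 8 matched genes, 6 held CCAAT or ATTGG at least once, against 34.6% of all windows. GGGCGG, the core of SP and KLF factors, or its reverse complement was in 7 of the 10, against 56.3%.

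The METTL14 window held the ETS core CCGGAAGT at position -4 and its reverse complement at -37, and it was the only member window with a match (5.35% of all windows). ALKBH5 held GCGCATGC, part of the NRF1 site, at position -56, and METTL3 held its reverse complement at position -199 (3.74% of all windows on either strand). YTHDF1 held the reverse complement of ATGGCGGC, the YY1 core, at position 12 (3.91% of all windows). Its last bases overlap an ATTGG. RBM15 and YTHDF1 held the E box CACGTG (8.34%). No member held TGACGTCA (CREB and ATF factors, 2.26% of all windows) or TCGCGA (the core of the ZBTB33 palindrome, 4.08%).

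The FTO window held none of these motifs. A search for CTACANNTC, part of the ZNF143 site, was added after the sequences were seen and found 2 matches in the FTO window, both as the reverse complement, at positions -243 and -108. At least 1 match was present in 4.02% of all windows and at least 2 in 0.406%. A match is a run of letters and was not tested for binding. The YTHDF1 window was the richest in CpG among the member windows, with 50 CpG dinucleotides (percentile 98.7 of all windows), and METTL14 was the poorest, with 13 (percentile 36.2).

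All 10 genes had a promoter peak in every list, meaning a peak within 1 kb of a RefSeq start site, or of either gene end where none was given. The same held for 12865 of 19974 protein-coding genes (64.4%). Of these protein-coding genes, 4162 were placed by both gene ends, VIRMA and YTHDF3 among them. For VIRMA and YTHDF3, distances of peak edges are from the end beside the peak. Every member had 1 promoter peak in each list, so the members' widths are those of single peaks. The median over the 10 genes was 1162 bp in the control, 1354 bp without IGF2BP1, 1091 bp without IGF2BP2 and 1127 bp without IGF2BP3. Over all protein-coding genes with a promoter peak, the medians were 1176, 1285, 1155 and 1168 bp in the same order. These widths are sums where a gene had more than 1 promoter peak. The members were thus spread around the middle of the promoters of each list rather than at their wide end. Among all peaks of the control list, whose median width was 771 bp, they stood at percentiles 43.1 (METTL14) to 98 (ALKBH5).

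**Figure D1:**
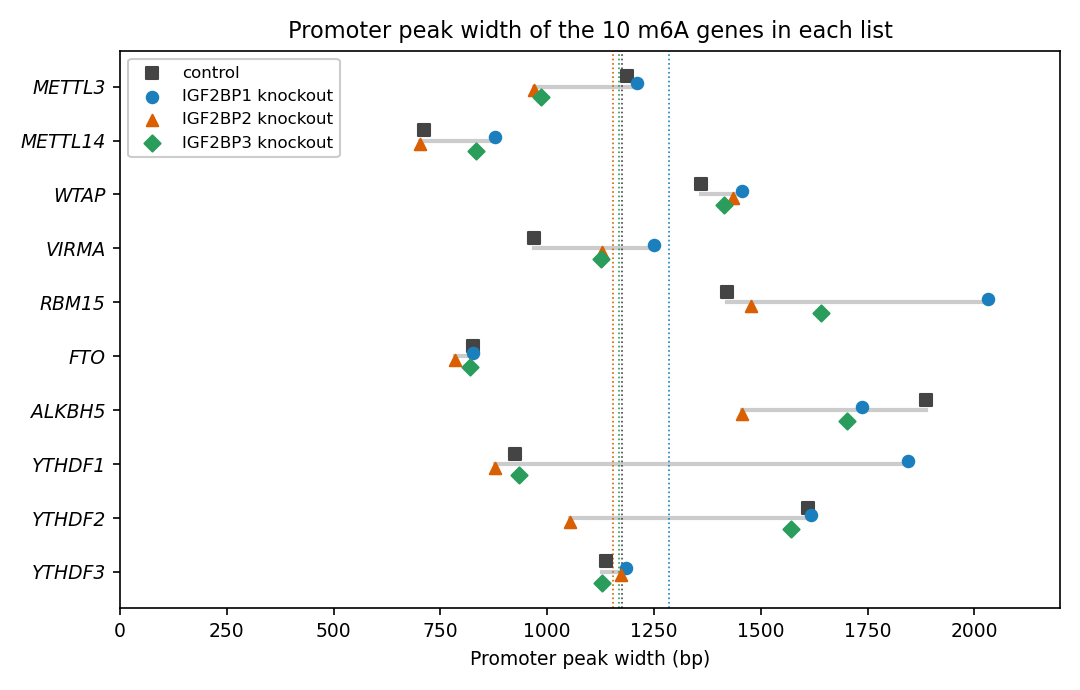
Width of the promoter peak (bp, horizontal axis) of each gene, with 1 marker per list, a grey bar from the narrowest to the widest list, and dotted lines at the median over all protein-coding genes in each list. YTHDF1 in the IGF2BP1 knockout (1845 bp) and YTHDF2 in the IGF2BP2 knockout (1054 bp) stand furthest from their other lists.

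Ordered by the median over the lists, ALKBH5 was the widest (1719.5 bp), followed by YTHDF2 (1590.5 bp), RBM15 (1559 bp) and WTAP (1423.5 bp). YTHDF3 (1155.5 bp), VIRMA (1127 bp) and METTL3 (1085.5 bp) came next, and YTHDF1 (929 bp), FTO (822.5 bp) and METTL14 (772.5 bp) were the narrowest. In the control, ALKBH5 stood at percentile 90.5 of all promoters and METTL14 at percentile 7.35. Neighbours in this order overlapped in their range over the 4 lists except WTAP against YTHDF3 and YTHDF1 against FTO. The ratio of the widest to the narrowest list had a median of 1.27 over the members and 1.24 over the 12865 protein-coding genes with a peak in every list.

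In the writer complex, METTL3 had a promoter peak at chr14:21510737-21511922 in the control (1186 bp). It measured 1210 bp without IGF2BP1, 968 bp without IGF2BP2 and 985 bp without IGF2BP3. The control and the IGF2BP1 knockout were thus the wider pair, and the other lists were 0.816 and 0.831 times the control. METTL14 was the narrowest writer, with 711 bp in the control (chr4:118685175-118685885), 878 bp without IGF2BP1, 702 bp without IGF2BP2 and 834 bp without IGF2BP3. Its edge inside the gene lay 493 to 504 bp from the start site in all lists, and the lists differed on the outer side, which stood at -217, -384, -197 and -336 bp in that order.

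WTAP, the adaptor of the METTL3-METTL14 pair, had the most even promoter of the writers. It measured 1361 bp in the control (chr6:159726650-159728010), 1457 bp without IGF2BP1, 1434 bp without IGF2BP2 and 1413 bp without IGF2BP3. Its ratio of the widest to the narrowest list was 1.07, at percentile 8.39 of protein-coding genes. VIRMA, the scaffold of the complex, on chromosome 8, measured 968 bp in the control (94553214 to 94554181), 1251 bp without IGF2BP1, 1128 bp without IGF2BP2 and 1126 bp without IGF2BP3. The control was the narrowest list for VIRMA, and the added width of the knockouts lay mainly on the gene side, by 191, 155 and 143 bp.

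RBM15, an RNA-binding protein that recruits the complex, measured 1421 bp in the control (chr1:110338234-110339654), 2033 bp without IGF2BP1, 1478 bp without IGF2BP2 and 1640 bp without IGF2BP3. The IGF2BP1 knockout peak was 1.43 times the control, short of the fold of 1.5 used for a call. It reached 428 bp further upstream, a shift at percentile 97.3 of protein-coding genes, and 184 bp further into the gene. All 5 writers were wider in the IGF2BP1 knockout than in the control, as were 76.2% of 13207 protein-coding genes with a peak in both lists. After division by the median fold of all genes, METTL3 (log2 fold -0.08) and WTAP (-0.01) were not wider, and with a window of 2 kb METTL14 turned to -0.56. With covered bases of the window, RBM15 was at 0.19 in place of 0.52.

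Among the erasers, FTO had the same promoter width in the control (chr16:53703555-53704380) and the IGF2BP1 knockout, 826 bp, with 784 bp without IGF2BP2 and 819 bp without IGF2BP3. Its ratio of the widest to the narrowest list, 1.05, stood at percentile 4.7 of protein-coding genes. ALKBH5 was widest in the control, with 1886 bp (chr17:18182431-18184316), and measured 1738 bp without IGF2BP1, 1457 bp without IGF2BP2 and 1701 bp without IGF2BP3. The IGF2BP2 knockout peak, 0.773 times the control, ended 185 bp inside the gene against 488 bp in the control, and its outer edge stood at -1271 bp against -1397 bp. The ALKBH5 folds stood at percentiles 8.85, 9.31 and 24.3 of all protein-coding genes without IGF2BP1, IGF2BP2 and IGF2BP3.

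The members past the fold were YTHDF1, wider without IGF2BP1, and YTHDF2, narrower without IGF2BP2. The same calls were made for 6.36% and 4.16% of protein-coding genes with a peak in both lists. YTHDF1, a reader studied for its part in translation, measured 924 bp in the control (chr20:63215877-63216800), 1845 bp without IGF2BP1 (chr20:63215130-63216974), 878 bp without IGF2BP2 and 934 bp without IGF2BP3. The IGF2BP1 knockout stood apart, at just under 2 times the control, while the other lists were 0.950 and 1.01 times the control. Its peak ended 1001 bp inside the gene, against 254 bp in the control, 236 bp without IGF2BP2 and 245 bp without IGF2BP3. This shift of 747 bp was at percentile 96.8 of protein-coding genes, whose median shift on that side was 67 bp. The outer edge reached 174 bp further. Among the promoters of its own list, YTHDF1 went from percentile 23 in the control to 84.9.

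YTHDF2, the reader best known for destabilising marked messages, measured 1610 bp in the control (chr1:28736372-28737981), 1618 bp without IGF2BP1, 1054 bp without IGF2BP2 (chr1:28736326-28737379) and 1571 bp without IGF2BP3. The IGF2BP2 knockout was the one list apart, at 0.655 times the control. Its edge inside the gene lay 755 bp from the upstream start site, against 1357, 1360 and 1321 bp in the control and the IGF2BP1 and IGF2BP3 knockouts. That shift was at percentile 95.7 of protein-coding genes, and among promoters of the same list the width stood at percentile 39.9, against 81.5 in the control. The log2 fold was -0.61, and -0.57 when bases of the promoter window covered by peaks were counted, which is short of the fold of 1.5. Both RefSeq start sites of YTHDF2 lay within the peak of every list.

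YTHDF3, on chromosome 8, measured 1138 bp in the control (63168052 to 63169189), 1185 bp without IGF2BP1, 1173 bp without IGF2BP2 and 1128 bp without IGF2BP3. All lists lay within 57 bp of each other. The 3 YTHDF genes, whose proteins are closely related, thus had different width patterns over these 4 lists. For YTHDF1, YTHDF2 and YTHDF3, the ratio of the widest to the narrowest list was 2.1, 1.54 and 1.05. These ratios stood at percentiles 95.3, 83.2 and 4.12 of protein-coding genes. With 1 list a group, the differences between the 3 genes were not tested.

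**Figure D2:**
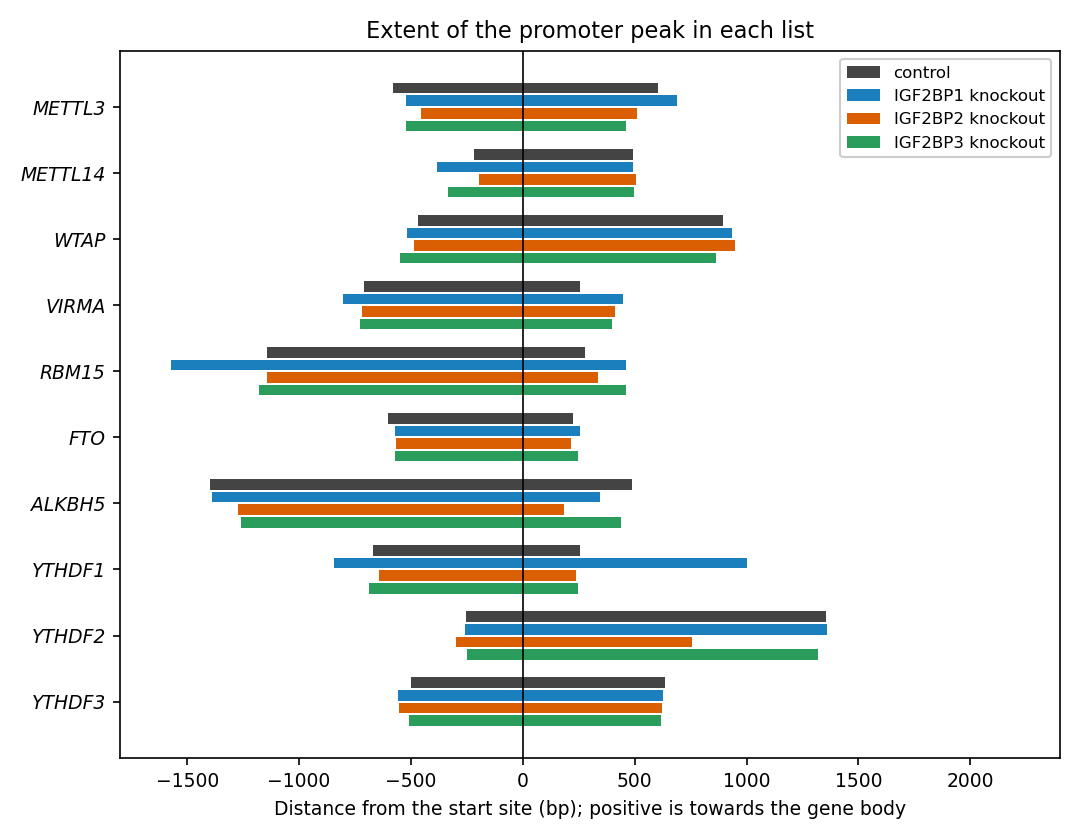
Extent of the promoter peak in each list, as the distance of its edges from the start site in bp (horizontal axis; the most upstream RefSeq start site, or the gene end for VIRMA and YTHDF3), with positive values inside the gene. The bar of YTHDF1 reaches 1001 bp into the gene in the IGF2BP1 knockout, and the bar of YTHDF2 ends at 755 bp in the IGF2BP2 knockout.

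With a call at a fold of at least 1.5 in width, 1 of 10 members (YTHDF1) was wider and 0 were narrower in the IGF2BP1 knockout. Of 13207 protein-coding genes with a promoter peak in both lists, 6.36% were wider and 0.901% narrower by this rule. In the IGF2BP2 knockout, 0 members were wider and 1 (YTHDF2) was narrower, against 2.58% and 4.16% of 13081 genes. In the IGF2BP3 knockout, 0 members were wider and 0 narrower, against 2.57% and 3.83% of 13066 genes. With 10 genes, 1 call in a list is near the background share. The median fold over the members was 1.06, 0.969 and 1.00 without IGF2BP1, IGF2BP2 and IGF2BP3, and over all protein-coding genes it was 1.07, 0.997 and 0.997.

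**Figure D3:**
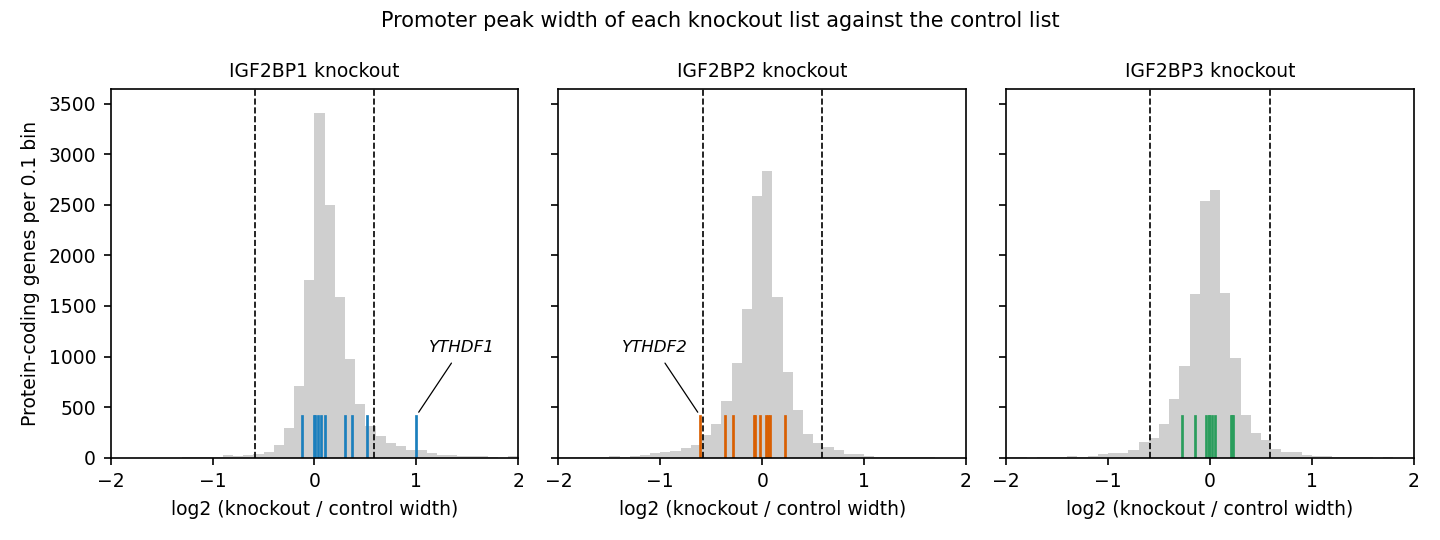
Log2 of knockout over control promoter width (horizontal axis) for all protein-coding genes with a peak in both lists (grey, genes per bin, vertical axis), with coloured ticks for the 10 members and dashed lines at a fold of 1.5. YTHDF1 lies beyond the line in the IGF2BP1 knockout and YTHDF2 in the IGF2BP2 knockout.

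Of 24 further writers, erasers, readers and cofactors (the 3 targeted genes left out), all 24 had a promoter peak in every list. In the IGF2BP1 knockout 0 were wider and 0 narrower by the fold, against 6.36% and 0.901% of protein-coding genes. In the IGF2BP2 knockout 1 was narrower, ZCCHC4, a methyltransferase of ribosomal RNA (1081 bp in the control, 629 bp in the knockout). In the IGF2BP3 knockout 1 was wider, FXR1, a paralogue of FMR1 (844 bp in the control, 1273 bp in the knockout). Over protein-coding genes, 4.16% were narrower without IGF2BP2 and 2.57% were wider without IGF2BP3. ZCCHC4 and FXR1 were named after their values were seen. The median folds of the 24 genes were 1.07, 0.997 and 0.989.

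No gene of that list passed the fold in the same direction in all 3 knockouts. FXR1 was 1.33, 1.31 and 1.51 times the control without IGF2BP1, IGF2BP2 and IGF2BP3. METTL4, also named after its values were seen, measured 986 bp in the control and 1477, 1215 and 1453 bp in that order. Without IGF2BP1 it fell just short of the fold of 1.5. For the targeted genes, widths are sums where a list held more than 1 promoter peak. IGF2BP3 had a promoter peak of 564 bp in the control and 1051 bp without IGF2BP1 and none in the IGF2BP2 and IGF2BP3 knockouts. IGF2BP1 had 2434 bp in the control and 2392, 907 and 2369 bp without IGF2BP1, IGF2BP2 and IGF2BP3, the last as 2 peaks. IGF2BP2 had 1534 bp in 2 peaks in the control, 2587 bp in 3 peaks without IGF2BP1, 1117 bp in 2 peaks without IGF2BP2 and 1773 bp in 1 peak without IGF2BP3.

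Several member promoters are shared with a neighbouring gene, and a peak there cannot be assigned to one of the pair. Of the 8 members with RefSeq start sites, 4 had a gene starting on the opposite strand within 1 kb upstream, as had 22.1% of 15812 protein-coding genes. FTO faces RPGRIP1L, a gene of the ciliary transition zone, at 297 bp, and WTAP faces SOD2, the mitochondrial superoxide dismutase, at 122 bp or more. METTL14 faces the noncoding METTL14-DT at 51 bp, and RBM15 faces the noncoding RBM15-AS1 at 206 bp. LOC124904276, annotated as protein-coding, also lies under the RBM15 peak. VIRMA and YTHDF3 had an end of VIRMA-DT and YTHDF3-DT within 1 kb. The upstream side of METTL14, where its widths differed most between lists, therefore lies over METTL14-DT. The upstream side of RBM15 lies over RBM15-AS1. Without IGF2BP1, the RBM15 edge moved by 428 bp on that side and by 184 bp on the gene side. Without IGF2BP2 and IGF2BP3, it moved by 0 and 35 bp upstream and by 57 and 184 bp on the gene side.

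Outside the promoters, 16 regions lay at the members, and their number was uneven among genes. FTO, whose body is 418 kb long, held 11 of them, and the bodies of the other 9 members held 0. The other 5 regions lay in the flanks of METTL14, WTAP, ALKBH5 and YTHDF1. Among all 26 regions, 13 (50%) were in all 4 lists, against 41.5% of all regions. Without FTO, the share was 12 of 14 (85.7%), and most of these regions are promoters. Regions at protein-coding start sites, or at gene ends where none was given, were in all 4 lists in 86.2% of cases over the genome. None of the 26 regions was shared by the 3 knockout lists while missing from the control. The share of all regions in that class was not counted. In the control alone there was 1 of the 26, and 1416 of all 71597 regions were of that kind.

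In the flanks, the region 35.1 kb downstream of the WTAP start touches start sites of ACAT2 and SOD2. It spanned 1239 bp in the control and 1397, 1089 and 1408 bp without IGF2BP1, IGF2BP2 and IGF2BP3. A region 33.8 kb from the ALKBH5 start, outside annotated genes, was also in all 4 lists, with 635 bp in the control (chr17:18217357-18217991) and 500, 519 and 496 bp in the knockouts. At -8.54 kb from the YTHDF1 start, a region in all lists spanned 683 bp in the control (chr20:63224487-63225169) and 999, 529 and 364 bp in the knockouts. The IGF2BP1 knockout was the widest list both there and at the YTHDF1 promoter.

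Another YTHDF1 region, at -7.42 kb, was present in the control (521 bp), the IGF2BP2 knockout (294 bp) and the IGF2BP3 knockout (288 bp) and missing from the IGF2BP1 knockout. The region at -1.91 kb from the METTL14 start was in the control (581 bp) and the IGF2BP2 knockout (291 bp) alone and lies in METTL14-DT. Both were narrow for their lists, at percentile 28 or below of all peaks.

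The 11 regions in the body of FTO, all on chromosome 16, were split unevenly among the lists. The control held 4, the IGF2BP1 knockout 5, the IGF2BP2 knockout 9 and the IGF2BP3 knockout 0. They covered 2714, 4332, 5187 and 0 bp in the same order. When every list was cut to its 39194 widest peaks, the counts were 4, 3, 3 and 0. This sets a different smallest width in each list. The FTO promoter, by contrast, was within 42 bp of the same width in every list. Whether a site is exonic or intronic was not determined.

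**Figure D4:**
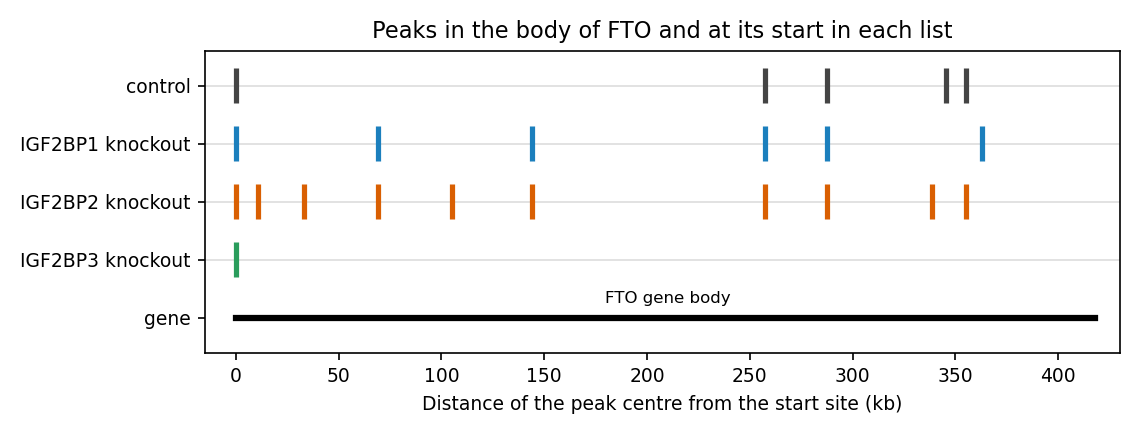
Position of the peak centres in the body of FTO in each list, as distance from the start site in kb (horizontal axis), with the gene body as a black line. The start site has a peak in all 4 lists, and the IGF2BP3 knockout list has no other peak in the gene.

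The widest FTO site lay 287 kb from the start site and was held by 3 lists. It measured 1074 bp in the control (chr16:53991067-53992140), 1428 bp without IGF2BP1 (chr16:53990911-53992338) and 1332 bp without IGF2BP2 (chr16:53990901-53992232). It ranked at percentiles 74.8, 88.6 and 92.3 of all peaks of those lists, so it was among the wide peaks of each, while the IGF2BP3 knockout list had no peak there. A narrower site 257 kb from the start was held by the same lists, with 433 bp in the control, 758 bp without IGF2BP1 and 486 bp without IGF2BP2.

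Of the other FTO sites, those at 69.3 kb (375 and 389 bp) and 144 kb (462 and 383 bp) were in the IGF2BP1 and IGF2BP2 knockouts. The site at 355 kb was in the control (681 bp) and the IGF2BP2 knockout (473 bp). The sites at 10.8 kb (404 bp), 33.3 kb (718 bp), 105 kb (626 bp) and 338 kb (376 bp) were in the IGF2BP2 knockout alone. That list is the longest of the series, and 10897 of all 71597 regions were in it alone.

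A site at 345 kb (chr16:54049390-54049915, 526 bp) was the one member region in the control alone. The site at 363 kb (chr16:54066624-54067932) was in the IGF2BP1 knockout alone and was wide for such a region, at 1309 bp. Of 4314 regions in the IGF2BP1 knockout alone, 90 (2.09%) were at least as wide. This was the smallest such share among the FTO sites held by 1 list. The share was 33.3% for the control site at 345 kb. For the IGF2BP2 knockout sites at 10.8, 33.3, 105 and 338 kb it was 66.4%, 10.9%, 20.1% and 73.2%. The sites at 345, 355 and 363 kb overlap the noncoding gene LOC105371271, which lies within FTO.

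The absence of FTO body sites from the IGF2BP3 knockout list was set beside the rest of the list after these values were seen. Of all 71597 regions, 39.2% lacked a peak in the IGF2BP3 knockout list, and 12 of the 26 member regions (46.2%) did, 11 of them in FTO. Of 363 protein-coding genes whose bodies held at least 11 regions away from coding start sites, 2 (0.551%) had none in the IGF2BP3 knockout list, FTO and THSD7A. In the control list, 3 had none. FTO has the smallest number of regions in that set. Of the 59 genes with 11 such regions, as in FTO, the same 2 (3.39%) had none in the IGF2BP3 knockout list and 1 had none in the control list. Of 420 genes within 25% of the length of FTO and with at least 1 such region, 9.52% had none in the IGF2BP3 knockout list.

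The share of regions away from coding start sites differed between chromosome 16 (1314 such regions) and the genome in every list. The IGF2BP3 knockout list held 53.1% of them over the genome and 44.1% on chromosome 16. The control held 45.3% and 55%, the IGF2BP1 knockout 65.1% and 69.6%, and the IGF2BP2 knockout 80.3% and 84.9%, so these lists held a higher share on chromosome 16. Beside FTO, the IGF2BP3 knockout held more such regions than the control on one side and fewer on the other. In the 2 Mb at lower coordinates, with 18 regions, the control held 5 and the knockouts of IGF2BP1, IGF2BP2 and IGF2BP3 held 12, 15 and 7. In the 2 Mb at higher coordinates, with 33 regions, they held 13, 23, 25 and 10. Promoter widths on chromosome 16 without IGF2BP3 had a median of 0.925 times the control, and FTO stood at 0.992. The part of the chromosome or of list depth in the missing sites was not tested.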

How the data were processed

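Per the labels' protocols, ATAC-seq libraries were made with an Omni-ATAC lysis and transposition step. The submitters' processing notes name fastp 0.24.1, BWA 0.7.17, MACS2 3.0.0, bedtools and GRCh38, with no thresholds. How libraries were combined, and whether reads were shifted for the transposase offset, is not given in the sources used here. The authors deposited 1 peak list per group in BED format, with positions in bp and no score. Depth and calling thresholds can change both the number of peaks and their widths.

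With Python 3.11.15 and pandas 2.3.3, promoter width was the summed width of peaks within 1 kb of a RefSeq start site, or of either gene end where none was given. Positions are counted from 1. Regions were overlapping peaks of the 4 lists joined at 1 bp. A fold of 1.5 was a call, with the share of all protein-coding genes beside it. The scripts were tested on simulated data. Alternatives covered window, width measure, scaling, list length and overlap. Members and gene lists were chosen with earlier results of these data known. The rule for names took all 10 members, other m6A genes without a promoter peak in some list or past the fold one way in all 3 knockouts, and the genes most like the member with the largest fold. Of regions outside member promoters, it took those in all 4 lists, in all 3 knockouts alone or in the control alone, and each member's widest. The remaining FTO sites, the YTHDF1 region missing from 1 list, single m6A genes and the ZNF143 search were added after values were seen.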

Additional observations from a re-analysis of the deposited data

How the results depend on the processing

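No paired analysis was possible because each group is 1 list with no value per library, and for the same reason no library could be left out. Over 8 ways of measuring or scaling width, 238 of 240 member folds stayed on their side of the fold of 1.5, and 0 called folds changed sign. Many of these values repeat the main one and are not separate checks, as every member had 1 promoter peak in each list. The widest single peak, a window of 250 bp, merging of peaks within 500 bp and the cut lists left every member fold as it was. The window of 2 kb changed METTL14 alone. The folds that crossed were METTL14 in the IGF2BP3 knockout with a window of 2 kb (log2 fold -0.63, where the upstream control peak is counted too), which gave 1 narrower member there, and YTHDF2 in the IGF2BP2 knockout with covered bases of the window (-0.57), which left 0 narrower members. Within the same side, METTL14 turned direction in the IGF2BP1 knockout with the 2 kb window (0.30 to -0.56) and moved in the IGF2BP2 knockout (-0.02 to -0.38), and RBM15 in the IGF2BP1 knockout moved from 0.52 to 0.19 with covered bases. The log2 fold of YTHDF1 in the IGF2BP1 knockout ran from 0.89 to 1.00. At a fold of 5/4, the IGF2BP1 knockout had 3 wider members (VIRMA, RBM15 and YTHDF1) and the IGF2BP2 knockout 2 narrower ones (ALKBH5 and YTHDF2), against 18% and 11.3% of all protein-coding genes. At a fold of 2 both counts were 0, since YTHDF1 falls just short of it. Taking the widest single peak moved the wider share of calls over all genes in the IGF2BP2 knockout from 38.3% to 25.3%. When each list was cut to its 39194 widest peaks, the body of FTO held 7 regions, 3 of them in the IGF2BP1 knockout and 3 in the IGF2BP2 knockout, with 4 in the control and 0 in the IGF2BP3 knockout. Depth was unknown, so a missing peak sets no limit on accessibility.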

Other observations

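The genes whose widths over the lists were most like those of YTHDF1, by the Euclidean distance of the 3 log2 folds among 2342 genes with a control width within 10% of its own, were BET1L on chromosome 11 (distance 0.118) and HAUS8 and MYO9B on chromosome 19 (0.13). HAUS8 and MYO9B have the same peaks. They measured 893 bp in the control, 1786 bp without IGF2BP1, 927 bp without IGF2BP2 and 886 bp without IGF2BP3. BET1L measured 1012, 2136, 908 and 1040 bp in the same order. The likeness rests on 4 lists.

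IRX3 and IRX5, homeobox genes at higher coordinates on chromosome 16 that are known for regulatory contacts with the body of FTO, were looked at after the FTO sites were seen. IRX3, 161 kb beyond FTO, had promoter widths of 1655 bp in the control, 1802 bp without IGF2BP1, 1820 bp without IGF2BP2 and 1652 bp without IGF2BP3. IRX5, 809 kb beyond FTO, had 1035, 1158, 742 and 2463 bp in the same order. At IRX3 the IGF2BP3 knockout and the control were nearly equal, and at IRX5 the IGF2BP3 knockout was the widest list.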
